A study of Danio rerio with 14 samples.

Results

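The untreated baseline of the zebrafish embryo at mid-gastrulation was described from 7 control pools of whole embryos, out of 14 pools in the series. Members were chosen by their labels alone: every sample labelled as a control was taken, and the 7 pools kept in 100 mM ethanol were left out of every step. Each pool held about 20 embryos of the TL strain, a wild-type strain, raised in embryo medium at 28.5°C and collected at 8 hours post fertilization (hpf). The pools are numbered 1 to 6 and 8 and came from 7 independent experiments, each of which may have used the offspring of a single breeding pair. RNA of each pool was hybridized to 1 Affymetrix Zebrafish Genome Array, whose probe sets each measure the 3′ end of a transcript by a fluorescence signal. With 1 group and 1 array per pool, no comparison between groups exists and no difference was tested. The spread between pools holds differences between embryo batches, RNA preparations and arrays, which cannot be told apart.

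At 8 hpf the blastoderm is spreading over the yolk cell by epiboly, while mesoderm and endoderm move inward at its margin and converge to the dorsal side. Dorsal organizer cells secrete antagonists of bone morphogenetic proteins (BMPs), and gradients of BMP, Nodal, fibroblast growth factor (FGF) and Wnt signals assign fates to the deep cells. Around them lie the extraembryonic layers, the enveloping layer as a flat covering epithelium and the yolk syncytial layer at the surface of the yolk. Transcripts laid down in the egg are being replaced by those of the embryo's own genome. Because whole embryos were pooled, a signal is an average over all of these tissues, and fewer cells of a type and less RNA per cell cannot be told apart.

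Signals are the deposited MAS5 intensities, which were scaled so that the trimmed mean of each array is 1000. In the 7 arrays the median signal over 15502 probe sets lay between 214 in pool 4 and 282 in pool 5. A signal of 200 was taken as detection, since the deposited table has no detection calls. Between 7943 probe sets in pool 4 and 9156 in pool 5 reached it, with a median of 8630. In all 7 pools 6779 probe sets did so (43.7%), 4242 did so in none (27.4%), and 4481 did so in some pools only. For a background level, 17 control probe sets named as tags had a median signal of 34.0, and 3 of their 119 signals reached 200. Probe sets with a single gene symbol represented 8793 genes, each taken by its strongest probe set. Of these genes 4702 reached 200 in all 7 pools (53.5%) and 1826 in none (20.8%). The values closest to the threshold were a mean signal of 200.4 for clic1, a chloride channel gene, just inside, and 199.8 for gsdmeb just outside. Mean signals here are geometric means over the 7 pools. An array signal also depends on the probes, so an order of genes is an order of signals and not of transcript numbers.

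The strongest signals came from genes of the translation machinery, RNA-binding proteins, chromatin proteins and a lipid carrier. Transcripts of COX1, the mitochondrially encoded subunit of cytochrome c oxidase, were highest with a mean signal of 196032, ranging over 170019, 186935 and 228973 as the lowest, median and highest pool. The elongation factor eef1a1l1 followed at 115774, 126284 and 163167 in the same order. In the deposited scaling pool 4 was lowest and pool 5 highest for both genes. Below them stood khdrbs1a, an RNA-binding protein of the Sam68 family, at 95310.2, and hmga1a, an architectural chromatin protein, at 82882. Cold-inducible RNA-binding protein cirbpb had a mean signal of 79656 and the hnRNP gene hnrnpa0l one of 78106. Proteins of the cytosolic ribosome accounted for 11 of the 30, from rps4x at 83805 to rpl30 at 62874. Other members were the Y-box RNA-binding protein ybx1 at 67216, the poly(A)-binding protein pabpc1a at 66628, ubiquitin gene ubb at 64399, the ferritin heavy chain fth1a at 65878 and the small heat shock protein hspb1 at 71792. Apolipoprotein E (apoeb), a lipid carrier expressed in the yolk syncytial layer, had 77149.8, and the lysosomal protease cathepsin L (ctsla) had 62568. The 30 genes together they held 8.84% of the summed signal of an array on average. Another 5 probe sets without a single symbol had signals as strong.

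**Figure D1:**
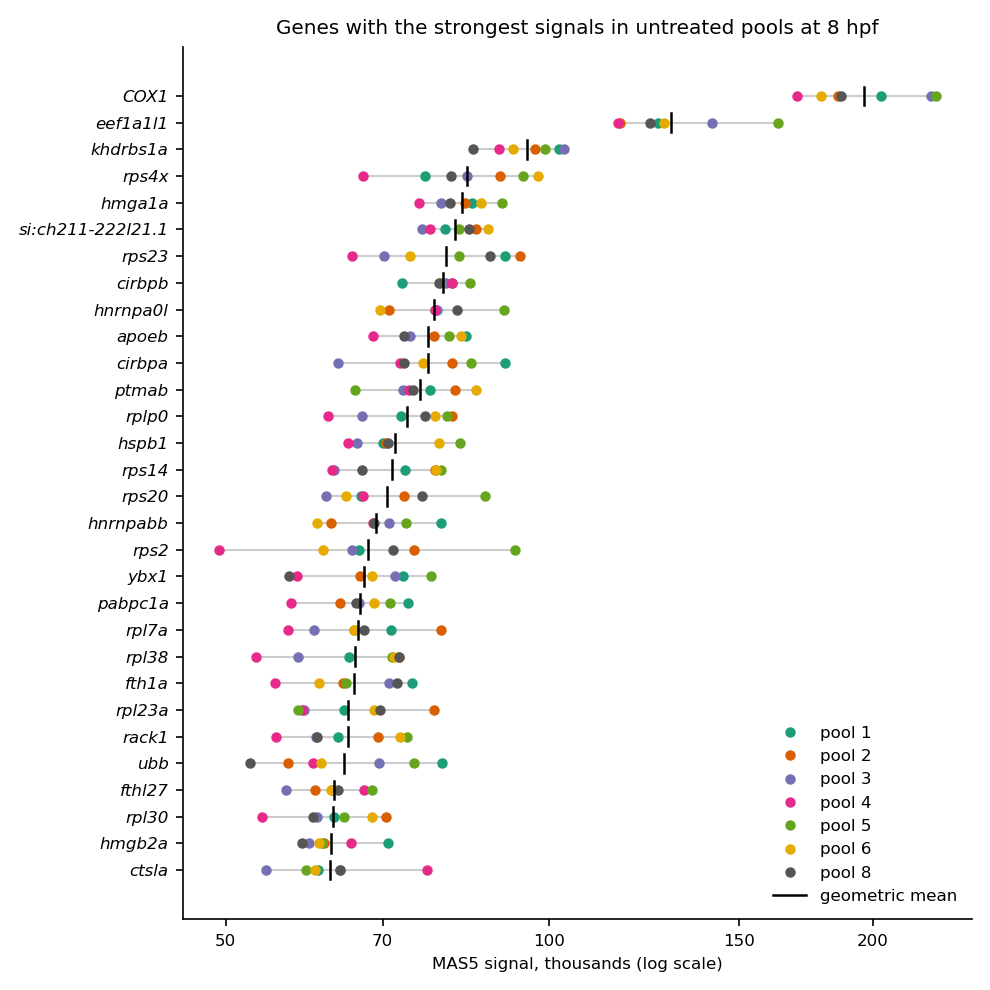
The 30 named genes with the strongest signals, in order of their geometric mean (black tick) over 7 untreated pools, with the MAS5 signal of each pool as a coloured point on a log axis in units of 1000. COX1 and eef1a1l1 stand at or above a signal of 115774 in every pool, and in the deposited scaling pool 4 is the lowest point of 16 of the 30 genes.

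Strong signals differed little between pools. Among the 30 genes the standard deviation (SD) of log2 signal over the 7 pools was between 0.07 and 0.28, with a median of 0.15, and the highest pool exceeded the lowest by a median of 1.31-fold. The widest was rps2, a protein of the small ribosomal subunit, at 49317 in pool 4, a median of 66504 and 92845 in pool 5. In the deposited scaling pool 4 was lowest for 16 of the 30 genes, and pool 5 was highest for 12. These pools also had the lowest and highest median signals. Whether the order of pools holds under other scalings was not tested for these genes. Since weak signals spread more, each gene with a mean signal of at least 200 was also set against the probe sets of its own level, in 20 bins, and the 10% with the highest SDs in each bin were marked. This top 10% held 502 of the 5429 genes of that level (9.25%).

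Genes of the basic machinery of the cell were detected in all 7 pools in most cases, against 53.5% of all genes. All 74 measured cytosolic ribosomal protein genes reached 200 in all 7 pools, with a median of their mean signals of 43860, against 389 over all 8793 genes. The median SD of the ribosomal genes was 0.17, against 0.28 over the 5429 genes with a mean signal of at least 200, most of them weaker. Set against probe sets of their own level they were not steadier in the deposited scaling. Their SD was a median of 1.04 times the median of that level, and 45 of the 74 were above it. The median SD of the ribosomal genes depended on the setting. It was 0.13 under quantile normalization, 0.18 after median centring of the arrays and 0.14 without pool 4. No ratio to the level is given for these settings. Of 59 genes for hnRNPs and splicing factors 56 were detected in all 7 pools, with a median SD of 0.17. For translation factors the count in all 7 pools was 54 of 64, for proteasome subunits 45 of 50 and for the respiratory chain and ATP synthase 76 of 85. Mitochondrial ribosomal protein genes were as widely detected, in 57 of 59 cases, but at lower levels, with a median of 1171 and mrpl57 highest at 3226. Of cell cycle genes 30 of 32 reached 200 in all 7 pools. The replication clamp pcna had 38842, 44064 and 54655 as its lowest, median and highest signal, and cyclin D1 (ccnd1) had 16838, 22399 and 25939.6. Ribonucleotide reductase rrm1 was among the steadiest of them, with an SD of 0.07 around 14052. Its lowest signal, 12753 in pool 4, stood apart, and the SD without that pool was 0.03.

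Dorsal organizer and axial mesoderm genes, which pattern the embryo from the shield, were nearly all detected. In all 7 pools 16 of 18 reached 200, against 53.5% of all genes. The BMP antagonist chordin (chrd) was the strongest, at 4966 in pool 4, a median of 5999 and 8305 in pool 3. The BMP-related ligand admp, made in the same cells, had 2389.6 in pool 2, a median of 4503 and 5519.7 in pool 5, with an SD of 0.41, or of 0.22 without pool 2. The homeobox gene noto, needed for notochord fate, was steady at 3101, 3443 and 3799.9, with an SD of 0.10 where probe sets of that level had a median of 0.22. Its partner tbxta, a T-box factor of the notochord and margin, varied more (2119, 3055 and 3382, SD 0.27). For the prechordal plate factor gsc, pool 2 was highest at 2518 and pool 3 lowest at 1149. Weaker signals came from the Hedgehog ligand shhb, which ranged between 209 and 579 with an SD of 0.57, the widest of the list. In the top 10% of spread were admp and the winged helix factor foxd3, 2 of 17 genes, near the 9.25% of all genes. For foxd3 the signal was 1557 in pool 2 and 3969.6 in pool 1, and its SD of 0.43 was 0.28 without pool 2. Pool 2 was the lowest of the 7 for admp, noto, tbxta and foxd3.

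At the ventrolateral margin, where mesoderm forms, transcription factors gave strong signals. Among 22 measured genes 15 were detected in all 7 pools and 2 in none, against 53.5% and 20.8% of all genes. The caudal homeobox gene cdx4, which specifies posterior fates, had 21979.8, 22755 and 30814 as its lowest, median and highest signal. The ventral repressors vox and ved reached mean signals of 20456 and 12424. A signal of 24104 in pool 6 stood apart for vox, whose other 6 pools lay within an SD of 0.05. Presomitic mesoderm factor msgn1 was highest in pools 6 and 2, at 24574 and 23718, and lowest in pool 1 at 13353. The T-box gene tbx16, which drives migration out of the margin, ran the other way, with 6216 in pool 2, 7640 in pool 6 and 12391 in pool 3. Of the list, hand2, a bHLH factor of the lateral mesoderm, had the largest SD at 0.97. It was at 886 in pool 2 and 578 in pool 6, and between 156 and 309 in the other 5 pools.

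Endoderm and Nodal genes were present at moderate levels. All 10 measured endoderm genes reached 200 in at least 1 pool, and 7 did so in all 7, against 53.5% of all genes. The endoderm determinant sox32 had a median of 11875, with 4 pools between 11875 and 12377, and with 7291 in pool 6, 7013 in pool 8 and 4087 in pool 2. Its SD of 0.62 was 0.40 without pool 2. Downstream, sox17 was much weaker at 310.2, 413 and 595. The chemokine receptor cxcr4a, which tethers endoderm to the mesoderm, had an SD of 0.18, or of 0.08 without the high pool 2, and its ligand cxcl12b one of 0.45, with pool 1 lowest at 1375. In the Nodal pathway 8 of 12 genes were detected in all 7 pools, against the same 53.5%. Of genes with a mean signal of at least 200, 2 of 9 Nodal and 2 of 7 endoderm genes were in the top 10% of spread. The share over all genes was 9.25%, and both lists were chosen with earlier results of these data known. The coreceptor tdgf1 led with 4237 in pool 2, a median of 6173 and 7486 in pool 5. Its effector foxh1 was lowest in pool 2 at 1395 and highest in pool 4 at 3623. The feedback inhibitors lft1 and lft2 had mean signals of 1192 and 1139. Of the ligands, ndr2 was detected in all 7 pools at 224, 392 and 650.1, while ndr1 reached 200 in pool 6 only, at 203. For mixl1, another early target, 1 pool reached 200.

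BMP pathway genes were detected in 23 of 28 cases in all 7 pools, against 53.5% of all genes. The target gene id1, a bHLH inhibitor, was strongest at 20005, 22516 and 26049.5. The ectodermal factor tfap2a was among the steadiest regulators, with an SD of 0.08 around 11387. The ligands differed in level: bmp2b had a mean signal of 4344, bmp4 of 864 and bmp7a of 336. Beside chrd, antagonists and modulators included the pseudoreceptor bambia at 5818. Sizzled (szl), a secreted inhibitor of the proteases that cleave Chordin, had an SD of 0.76. It had 8562 in pool 2 and 5379 in pool 6, against 1698 in pool 1 and a median of 3092. The epidermal factor tp63 was likewise highest in pools 2 and 6, at 1709 in pool 2 and 1919 in pool 6, while no other pool exceeded 787. The follistatin gene fsta had the largest SD of the list, 1.28, with signals of 1544 and 1062 in pools 2 and 6 and between 172 and 557 in the rest.

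Of 17 FGF pathway genes 11 were detected in all 7 pools, against 53.5% of all genes. None of the 11 with a mean signal of at least 200 was in the top 10% of spread. The receptor fgfr4 had a mean signal of 7674, and the target genes etv5b and etv4, ETS factors, had 6744 and 3695. The phosphatase dusp6, which dampens the signal, had 2421, 3177 and 4263. The ligand fgf8a stood at 927, 1085 and 1256, and fgf24 at 205, 345 and 560.2. In the Wnt list 26 of 30 genes were detected in all 7 pools, against the same 53.5%. Of 26 with a mean signal of at least 200, 2 were in the top 10%, near the 9.25% of all genes. Beta-catenin 1 (ctnnb1), the adhesion and signalling protein, was at 23175, 25168 and 26223, and its SD of 0.06 was among the 20 smallest of all genes. The feedback regulator axin2 was similarly steady, with an SD of 0.07 around 5121. The second beta-catenin gene ctnnb2 varied more, with 14818 in pool 2 and 24404 in pool 4. The Wnt target sp5l had a mean signal of 16537. The receptor fzd7a had 1 pool apart, 11247 in pool 5, and without it an SD of 0.07. The ligand wnt5b, which acts in convergence and extension, was detected in all 7 pools at a mean of 920.0. The probe set with the symbol wnt11 did not pass 32.7. Whether it measures the wnt11-type ligand that acts in the gastrula was not tested. The planar polarity gene vangl2 reached 200 in pool 1 only.

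Epiblast and neural plate genes covered a wide range of levels and spreads. Of 37 measured genes 25 reached 200 in all 7 pools, against 53.5% of all genes. SoxB1 factors sox3 and sox19a, which keep cells competent for neural fate, had mean signals of 10809 and 9909.7, and sox2 had 3114. The zinc finger gene zic2b was at 10196 and the hindbrain Iroquois factor irx7 at 7511. Head factor otx2b had an SD of 0.19, with pool 2 highest at 4537. The eye field gene rx3 had the largest SD of the list, 1.14, at 1482 in pool 2, 1063 in pool 6 and 198 in pool 4. Its neighbour in the anterior neural plate, six3b, showed a like range of 226 in pool 3 to 1539.8 in pool 2. The homeobox gene meis3, a posterior neural regulator, had 3405 in pool 2, 3140 in pool 6 and 927 in pool 1. Of these 29 genes with a mean signal of at least 200, 11 were in the top 10% of spread, against the 9.25% of all genes. The list was chosen with earlier results of these data known, so this count is not independent of the data.

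**Figure D2:**
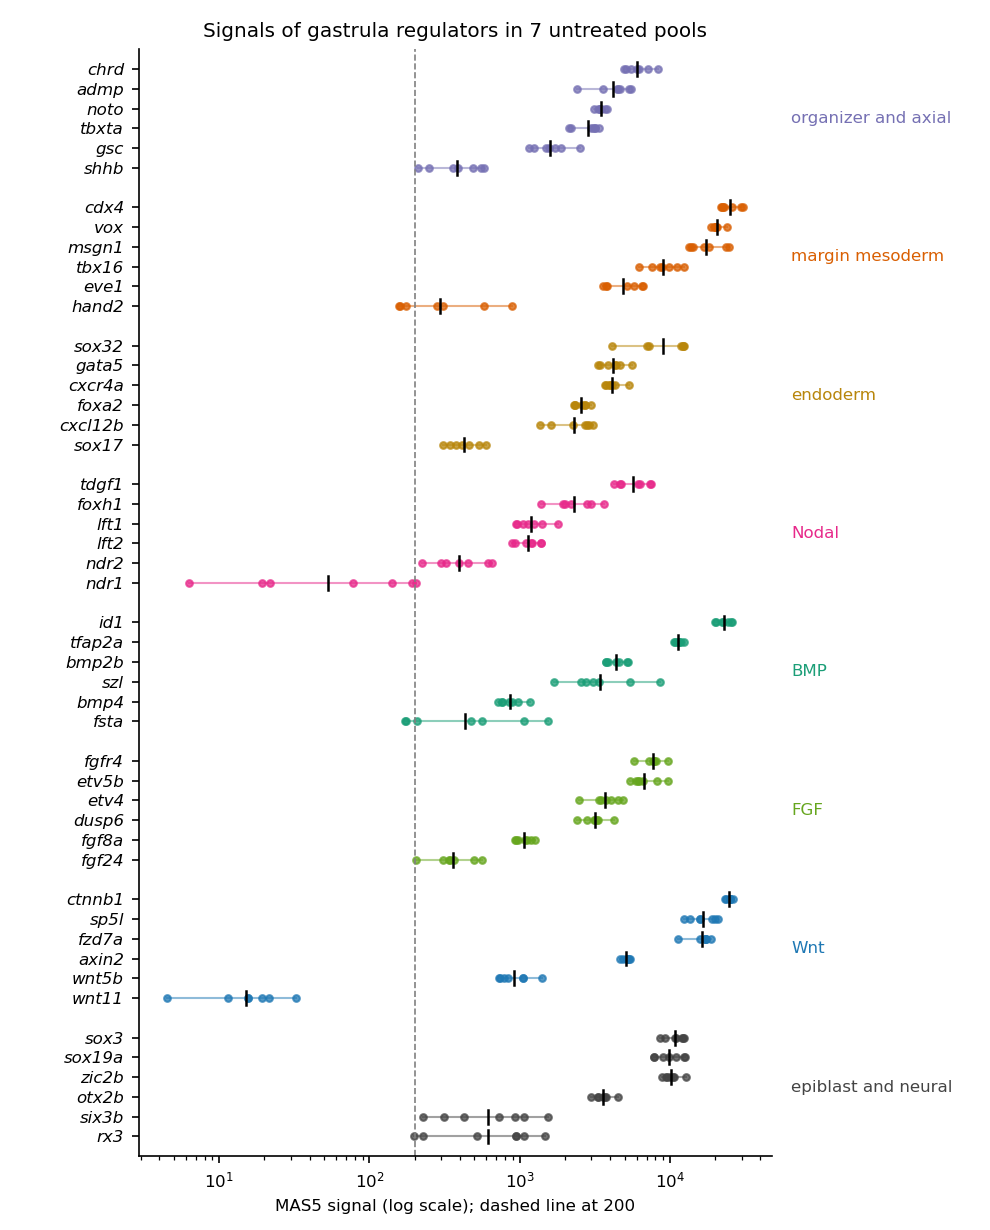
MAS5 signals of gastrula regulators in 7 untreated pools on a log axis, 6 genes for each of 8 roles, with 1 point per pool, a line from the lowest to the highest and a black tick at the geometric mean. Most regulators lie above the dashed line at 200 in every pool, while ndr1 and wnt11 lie below it or at it, and of the others hand2, fsta, six3b and rx3 spread most widely.

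Enveloping layer genes ranged between strong, steady keratins and members not detected. Of 36 genes in the list 26 were detected in all 7 pools and 5 in none, against 53.5% and 20.8% of all genes. The strongest keratins, krt8, krt97, krt18a.1 and krt4, which form filaments of this epithelium, had mean signals of 56119, 50249.5, 46963 and 42733. Their SDs were 0.10, 0.16, 0.09 and 0.08. The annexin anxa1a was at 51201, and lye at 52653. The claudin cldne, of the tight junctions, was weaker at 748. E-cadherin (cdh1), the adhesion protein of both deep cells and the covering layer, had 2758 in pool 5 and between 4713 and 6448 in the other 6 pools. Its SD of 0.42 was 0.19 without pool 5. The largest SD of the list belonged to icn2, an S100-type calcium-binding protein, at 266 in pool 3 and 799 in pool 1. In the top 10% of spread were 6 of 26 genes, against 9.25% of all genes, cdh1 and icn2 among them. This list too was chosen with earlier results of these data known.

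Yolk syncytial layer and yolk genes held both very strong and very variable members. Of 46 measured 31 were detected in all 7 pools and 9 in none, against 53.5% and 20.8% of all genes. The lipoprotein genes apoeb and apoc1 had SDs of 0.11 and 0.14, and the main apolipoprotein of high-density particles, apoa1a, had 19882, 25254 and 32276. Its companion apoa2 varied more, with 7059 in pool 2, 5098 in pool 6 and 1278 in pool 3. The fatty acid binding protein fabp2 had 15283 in pool 2, 13041 in pool 6 and 8433 in pool 8, while the other 4 pools lay between 3378 and 5177. The protease inhibitor gene serpina1l likewise stood at 9338 and 8034 in pools 2 and 6 and between 2081 and 4066 elsewhere. For tfa, transferrin, pools 6 and 2 were highest at 14522 and 14056 and pool 3 lowest at 6929. The amino acid transporter chain slc3a2b was lowest in pool 2, with 8582, and highest in pool 4, with 19388. The homeobox gene mxtx2, an early regulator of this layer, did not pass 177 in any pool. Of the 32 members with a mean signal of at least 200, 17 were in the top 10% of spread at their level, against 9.25% of all genes. Their median SD was 0.39, against 0.28 over all genes. Members were chosen with earlier results of these data known, so this count is not independent of the data.

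Of 22 genes known for roles in the oocyte or as maternal supply 15 reached 200 in all 7 pools and 2 in none, against 53.5% and 20.8% of all genes. The list also holds genes that the embryo transcribes itself, such as pou5f3 and ybx1, and the arrays do not separate these sources. The pluripotency factor pou5f3, supplied by the mother and then by the embryo, was strong and variable, at 11089 in pool 2, 13508 in pool 6 and between 18998 and 29607 in the other 5. The maternal linker histone h1m had 464 in pool 2, 760 in pool 6 and 1852 in pool 1. The oocyte nuclear protein npm2b had 1489.8 in pool 2, a median of 2256 and 2765 in pool 5. Another factor of genome activation, nanog, was at 628, 993 and 1307, again with pool 2 lowest. Egg envelope genes zp3b and zp3a.1 had mean signals of 752 and 859 and SDs of 0.16 and 0.13. Of 16 germ plasm and germ cell genes 8 were detected in all 7 pools and 5 in none, close to the shares over all genes. The germ cell RNA-binding protein nanos3 had 507, 776 and 1227, and the helicase ddx4 had 488, 788 and 1174. The guidance receptor cxcr4b, which germ cells share with somatic tissues, had an SD of 0.71. Germ cell genes dnd1, with a mean of 326, and dazl, which did not pass 172, were at the low end. Of genes with a mean signal of at least 200, 3 of 17 maternal and 2 of 8 germ cell genes were in the top 10% of spread. In a list for pluripotency and genome activation 5 of 13 were, against 9.25% of all genes. These lists were chosen with earlier results of these data known.

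Genes of differentiated tissues that form later were set beside the labelled stage, and few were detected in every pool, against 53.5% of all genes. These lists too were chosen with earlier results of these data known, so their counts are not an independent check of the stage. None of 9 eye genes reached 200 in all 7 pools, and 6 reached it in none, against 20.8% of all genes in none. In the blood list 2 of 12 genes were detected throughout, in muscle 2 of 24, in the nervous system 1 of 17 and in gut organs 2 of 19. No pool reached 200 for 7 of 12 blood genes, 12 of 24 muscle genes, 10 of 17 nervous system genes and 12 of 19 gut genes. The share over all genes was the same 20.8%. The rest of each list reached 200 in at least 1 pool. Embryonic globins hbae3 and hbbe3 had mean signals of 77.8 and 19.4, the muscle light chain mylpfa of 52.9, the lens crystallin cryaa of 50.4, the neutrophil genes mpx and lyz of 31.2 and 55.0, and the glial and synaptic genes gfap and snap25a of 37.5 and 35.3. Of these, hbbe3, mylpfa, mpx, gfap and snap25a were chosen after their values were seen. Other markers, ckma, tnnt3a, elavl3 and fabp10a, also had mean signals below 200. Among them ckma and tnnt3a were stronger than mylpfa, and elavl3 was stronger than gfap and snap25a. The median of the mean signals was 65.3 over the muscle list and 44.3 over the nervous system list. Exceptions at 200 in all 7 pools were lcp1, an actin-bundling protein of leukocytes, at 5230.0, the carbonic anhydrase cahz at 3213, the cardiac actin actc1a at 6449.9, actc1b at 307 and the tubulin tubb5 at 2128, besides fabp2 and tfa of the yolk list. Pools 6 and 2 were highest for actc1a, at 13066 and 9782, and pool 4 lowest at 3566. For the muscle light chain myl10, which reached 200 in 3 pools, the signals were 839 in pool 2, 705 in pool 6, 250 in pool 8 and at most 92.2 in the other 4. Of the markers set for cell types, krt92, grhl3, ttr, hbbe1 and myhz2 had no probe set of that single symbol.

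Spread between pools depended on the level of the signal. Over 8074 probe sets with a mean signal of at least 200 the median SD of log2 signal was 0.30, which is a factor of 1.23, and the quartiles were 0.21 and 0.42. In 20 bins of rising signal the median SD was 0.54 in the weakest, around a signal of 218, and 0.16 in the strongest, around 23491. An SD of at least 0.5 was found for 15.8% of these probe sets and one of at least 1 for 126 (1.56%). For 76 of the 126 the SD was smaller by over 1.5 times without a single pool. A highest pool at least 2-fold above the lowest was found for 36.7%. Beside this, 18 hybridization spike controls had a median SD of 0.18. They are added to the array mixture and not taken from the embryos, and their mean signals were between 1203 and 128401. Probe sets had median SDs of 0.26 in the bin around a signal of 1135 and 0.16 in the strongest bin. Control probe sets named dap, with mean signals between 1063 and 3713, had SDs between 0.21 and 0.46. The share of the spread that comes from the arrays was not tested.

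**Figure D3:**
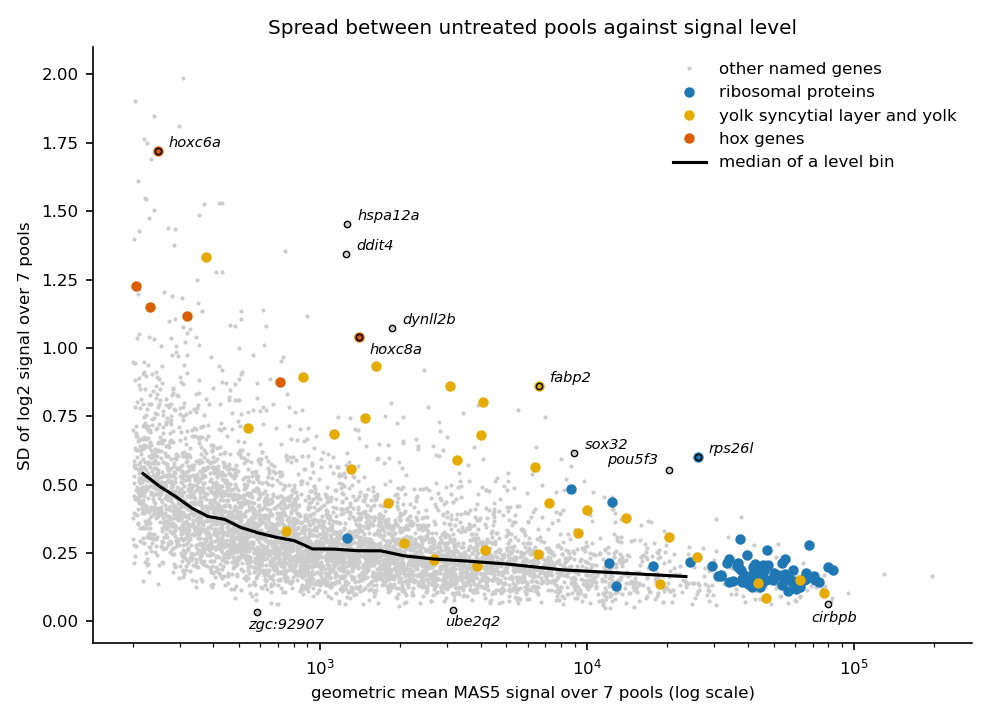
SD of log2 signal over 7 untreated pools against the geometric mean signal (log axis) for 5429 named genes, with ribosomal protein, yolk syncytial layer and hox genes coloured and the black line joining the medians of 20 level bins. Ribosomal genes sit at the strong, steady end near the line with rps26l above it, while the hox genes shown and many yolk genes lie well above the line. Only hox genes with a mean signal of at least 200 are shown. That minimum built a wide spread into their choice, so their place above the line is not read.

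The steadiest genes spanned a wide range of levels. The smallest SD was 0.03, for zgc:92907, at 558, 584 and 603. The ubiquitin-conjugating enzyme ube2q2 had an SD of 0.04 at 2973, 3179.8 and 3263, and the phosphatase ptp4a1 one of 0.05 at 11573, 12318 and 12697. Beta-actin 2 (actb2), a common reference transcript, had 45711, 49871 and 51185. Its paralog actb1 was in the top 10% of spread at its level, with an SD of 0.28 around 51857. Others of the 20 were the spliceosome core protein prpf8, the clathrin heavy chain cltca, ctnnb1 and cirbpb. Second probe sets did not repeat this steadiness for all of them, with SDs of 0.44 for cltca, 0.17 for ctnnb1 and 0.86 for cirbpb, the last at a much weaker signal. Across the 20 the highest pool exceeded the lowest by a median of 1.13-fold.

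Among genes with a mean signal of at least 1000, the 15 with the largest SDs included 5 whose SD rested on 1 pool and 7 that were highest in pool 2. Hsp70 family gene hspa12a had 139 in pool 2, against a median of 1559.5 and a highest of 2617, and its SD of 1.45 was 0.40 without pool 2. Likewise ddit4, an inhibitor of TOR signalling induced by stress, had 177 in pool 3 against a median of 1755, with an SD of 1.34 that was 0.55 without that pool. The dynein light chain dynll2b was set by a high value, 7758 in pool 4 against a median of 1478, with an SD of 1.07 or of 0.63 without pool 4. The proline synthesis enzyme aldh18a1 and the creatine synthesis enzyme gamt were the other pair of the 15 whose SD was smaller by over 1.5 times without 1 pool. aldh18a1 had 461 in pool 2 and gamt 500.2 in pool 3. By contrast, the SD of hoxc8a, 1.04, was 0.90 at the least when any 1 pool was left out. Apolipoprotein apoa2, fabp2 and serpina1l, described above, also belong here, as does selenow2a, a small selenoprotein, which had 5893 in pool 6, a median of 2245 and 1052 in pool 5. Phosphatase subunit ppp1cc was low in pool 2 at 559 and high in pool 3 at 4153. Histone variant h2ax was highest in pools 1 and 3, and the mitochondrial carrier slc25a55a was lowest in pools 6 and 2. The last members were gid8b of a ubiquitin ligase complex and the acyl-CoA binding protein dbi, with SDs of 0.78 and 0.77.

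The largest SDs of all belonged to weak genes and rested on few pools. The 20 largest were between 1.44 and 1.99, with a median of the mean signals of 245, and for 16 of the 20 the SD was smaller by over 1.5 times without 1 pool. The transcription factor jun, for example, had 17.1 in pool 3 and between 279 and 520.4 in the other pools, and its SD of 1.69 was 0.33 without pool 3. More graded was nr2f5, a nuclear receptor of the early embryo, with 1561 in pool 2, a median of 299 and 34.4 in pool 4. The neural genes dmbx1a and olig2, transcription factors, were both highest in pool 2, at 1224 and 692.

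Hox genes, which give posterior identity along the body axis and are switched on in sequence during gastrulation, were weak, and those measured above 200 on average were high in the same pools. Of 34 measured 2 were detected in all 7 pools and 14 in none, against 53.5% and 20.8% of all genes. The 2 were hoxc8a, at 727, 926 and 3844, and hoxb3a, at 287, 899 and 1413. With hoxb9a, hoxc6a, hoxc9a and hoxb7a, 6 had a mean signal of at least 200. Their high pools helped several of these 6 past that minimum, so that a wide spread was built into the choice and their count in the top 10% is not read. Pools 2 and 6 were the highest pair for all 6, for example at 771 and 1025 for hoxb9a, whose other 5 pools lay between 144 and 335. The low values were less alike, since hoxc6a was lowest in pool 3 at 20.8, hoxb7a in pool 1 at 47.2 and hoxc9a in pool 4 at 56.7. Because the minimum favoured genes high in some pools, the pairing of pools 2 and 6 may be partly built in too. Over all 34 measured, genes above their own mean numbered 25 in pool 2, 24 in pool 5, 23 in pool 6 and 22 in pool 8. Of all 8793 named genes, 4723, 5002, 4874 and 4438 were above their mean in these pools, in the same order. For hoxc6a the SD of 1.72 was 0.75 without pool 3.

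**Figure D4:**
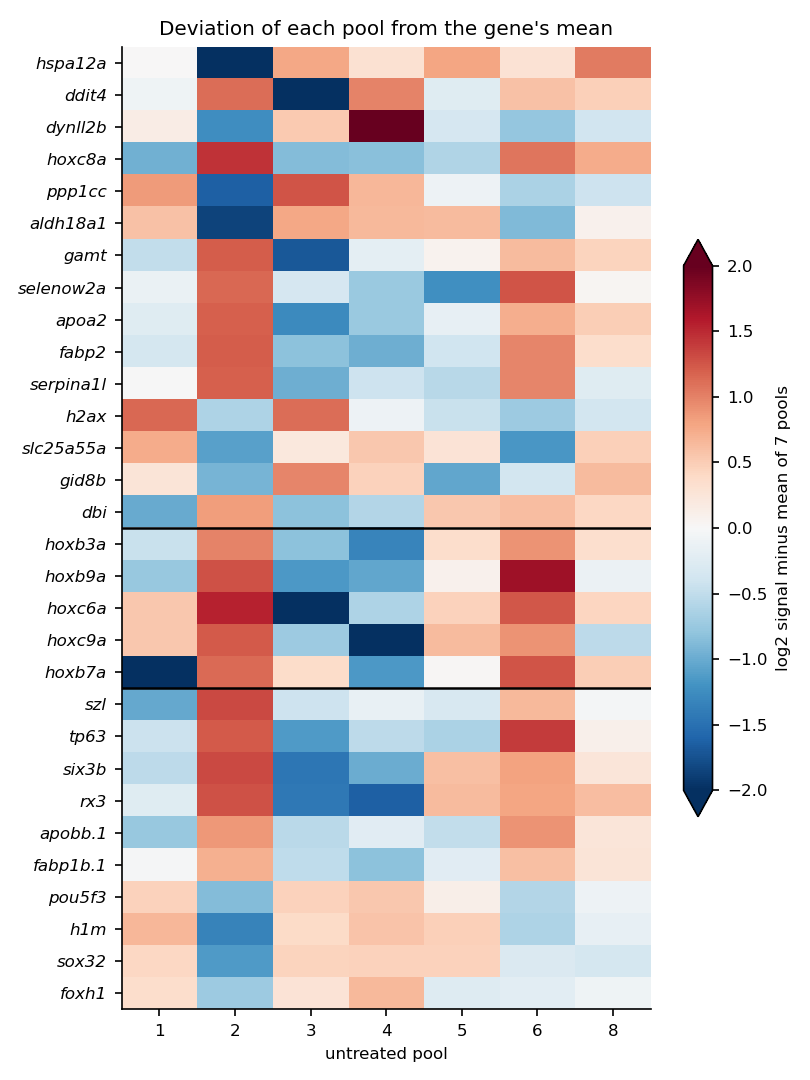
Log2 signal of each untreated pool minus the gene's mean over 7 pools, from blue (lower) to red (higher), for the 15 most variable genes with a mean signal of at least 1000 (top block), 5 further hox genes (middle) and 10 other regulators and yolk genes chosen after their values were seen (bottom), with colours ending at -2 and 2. Pools 2 and 6 are red together for hox genes, fabp2, serpina1l, szl and tp63 and blue together for pou5f3, h1m and slc25a55a, while hspa12a, ddit4 and dynll2b have their largest deviation in a single pool.

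Deviations of gene lists differed by pool. Over the 6 hox genes the mean deviation in log2 from the gene's own mean was 1.27 in pool 2 and 1.17 in pool 6, and -1.13 and -1.16 in pools 3 and 4. Over all 34 measured hox genes, an alternative chosen after seeing the data, the values were 0.63, 0.68, -0.97 and -0.95 for the same pools, and 0.49 for pool 5. Over 32 yolk genes it was 0.35 in both pools 2 and 6, and between -0.30 and 0.10 in the others. For the 29 epiblast and neural plate genes pool 2 had 0.44 and pool 3 -0.34. In the opposite direction, 17 oocyte and maternal genes averaged -0.38 in pool 2 and -0.17 in pool 6, and 8 germ cell genes -0.36 and -0.28. Both lists hold h1m, so their values are not independent of each other. Ribosomal protein genes deviated less, between -0.22 in pool 4 and 0.19 in pool 2, but nearly as a block: 72 of 74 were above their mean in pool 2 and 1 of 74 in pool 4. Of all 5429 named genes, 2938 were above their mean in pool 2 and 2546 in pool 4. Over all 5429 named genes the mean deviation was between -0.03 and 0.03. Arrays were also centred on their medians in place of the trimmed mean. Over probe sets with a mean signal of at least 200, pool 4 then had a median deviation of 0.20, against -0.02 as deposited. That deviation was the largest of any pool. With that scaling the ribosomal value of pool 4 became -0.0021 and the yolk value of pool 4 changed sign to 0.02. The hox, yolk, neural, maternal and germ cell values of pools 2 and 6 kept their signs under that scaling and under quantile normalization. With no minimum on the mean signal the yolk values over 46 genes were 0.14 in pool 2 and 0.26 in pool 6. Pool 1, at -0.22 over the 32 yolk genes, then had 0.17, above pool 2. Over all 8793 named genes with no minimum, the mean deviations were themselves 0.08, -0.03 and 0.04 in pools 1, 2 and 6. In pools 3, 4 and 5 they were 0.02, -0.16 and 0.12. The list values with no minimum, those of the 34 hox genes included, were not corrected for these shifts. The maternal values over 22 genes were -0.54 in pool 2 and -0.06 in pool 6. Germ cell values over 16 genes were -0.64 in pool 2 and 0.03 in pool 6, a change of sign for pool 6.

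**Figure D5:**
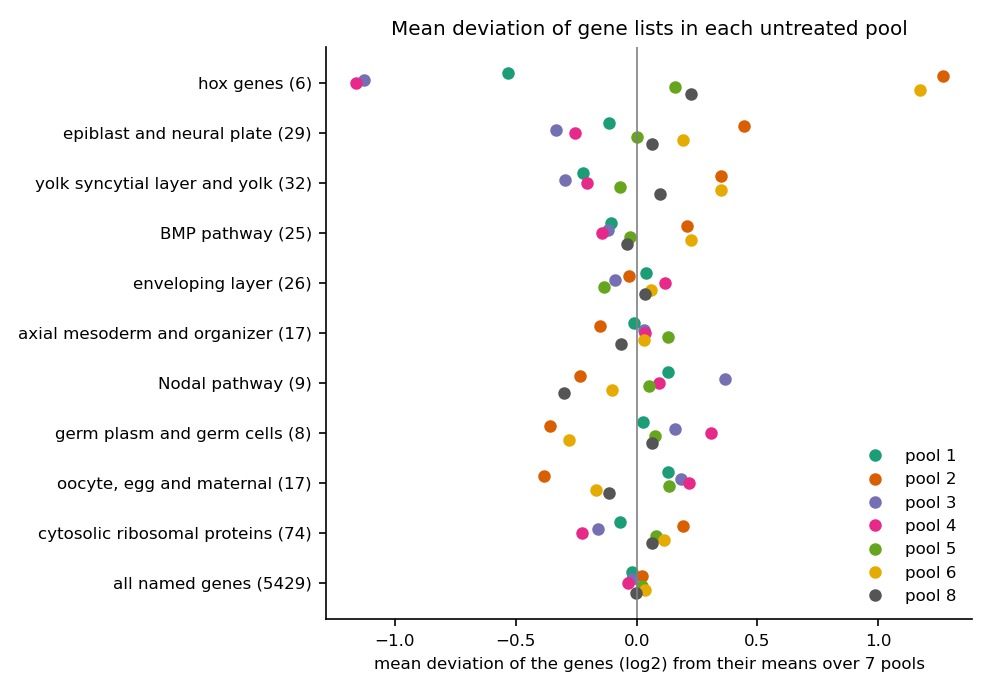
Mean deviation in log2 of each gene list from the genes' means over 7 pools, 1 point per pool. Only genes with a mean signal of at least 200 are included, and their number is given. Pools 2 and 6 lie to the right for hox, neural, yolk and BMP genes and to the left for germ cell and maternal genes, while over all named genes no pool lies further than 0.035 from 0. Of the 25 BMP genes only 13 were above their own mean in pool 2, near the share over all named genes (2938 of 5429). In pool 6 the count was 19 of 25, against 2999 of 5429.

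Across all probe sets with a mean signal of at least 200, log2 signals of any pair of pools correlated at between 0.93 and 0.97. After the mean of each probe set was removed, pools 2 and 6 had the highest correlation of the 21 pairs, 0.38, and pools 2 and 3 the lowest, -0.47. These are correlations across probe sets, which are not independent replicates, and removal of the mean makes the average pair negative (-0.16). The first principal component of these deviations held 33.4% of the variance, with its largest positive weights on pools 2 and 6, and the second held 18.2%. Among the 800 probe sets in the top 10% of spread at their level, pools 2 and 6 were the highest pair for 197 (24.6%), against 11.3% of all 8074, and the lowest pair for 150 (18.8%), against 8.55%. No other pair was highest for more than 9.5% of the 800, and pools 1 and 3 were the lowest pair for 15.5%. The order of the pools by these measures was not set against any label. The labels give the 7 pools the same age and treatment, and the authors' methods name a single strain.

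Genes measured by more than 1 probe set show how far a spread is repeated by another probe set on the same arrays. Some pairs, such as those of mdh1aa and nr0b2a, are named for the same target sequence and may share probes. Such pairs can raise the agreement given here, and they were not set apart. For 757 genes with 2 probe sets of sufficient signal, the log2 signals of the strongest 2 correlated over the 7 pools with a median of 0.27. For the 68 genes whose first probe set was in the top 10% of spread, the median was 0.60, against 0.25 for the other 689. The second probe set was in the top 10% as well for 32 of the 68 (47.1%), and for 53 of the other 689 (7.69%). Both probe sets of gid8b had SDs of 0.78 and 0.79 and correlated at 0.93, and those of dynll2b had 1.07 and 1.02 and correlated at 0.90. The pair of selenow2a correlated at 0.85. Other pairs did not follow each other, such as those of msgn1 (-0.28) and sox2 (-0.66). The pair of dbi correlated at 0.73, but the second probe set, of weaker signal, had an SD of 0.15, far from the 0.77 of the first.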

How the data were processed

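RNA was extracted with TRIzol, labelled with the 3′ IVT Express kit and hybridized to the Affymetrix Zebrafish Genome Array. A single round of labelling, hybridization and scanning covered the series, by the authors' methods. The intensity values are MAS5 signals on a linear scale which the authors scaled to a target of 1000 and deposited, 1 per probe set and array. The deposited table holds 15617 probe sets, of which 115 controls were left out, and no detection calls. Symbols came from the array annotation, updated through gene identifiers (1 changed): 10795 probe sets had 1 symbol, 135 several and 4572 none.

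For 7 control arrays, log2 signals were described by mean and SD in Python 3.11.15 with pandas 2.3.3, numpy 2.4.6 and matplotlib 3.10.9. Spread was described where the mean log2 signal corresponded to at least 200. The 34 gene lists and the members were chosen with earlier results of these data known. Genes were named by rule: the 30 strongest, the 20 largest and 20 smallest SDs, the 15 largest SDs from a mean signal of 1000, and of each list the 6 strongest, the most variable and, for later tissues, those detected in all 7 pools. Outside this rule, and chosen after their values were seen, were axin2, bmp2b, bmp4, bmp7a, cldne, clic1, dazl, dnd1, fgf8a, gfap, gsc, gsdmeb, hbbe3, meis3, mixl1, mpx, mxtx2, mylpfa, nanog, ndr1, ndr2, npm2b, six3b, snap25a, sox17, sox2, szl, tp63, vangl2, wnt11, wnt5b, zp3a.1 and zp3b. The steps that give SDs and bins were tested on simulated data. Depth is not defined for arrays, and 7 pools limit the precision of each SD. Alternatives were other minimums, scalings, an offset of 100, a robust spread and leaving out each pool.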

Additional observations from a re-analysis of the deposited data

Results flagged for a closer look

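For 10 of 133 genes named above with a mean signal of at least 200, the log2 signal of 1 pool stood apart from the other 6, with a gap to its neighbour that was large against the whole range by Dixon's criterion. Chance alone gives about 1 such gap in 20 groups, and over all 5429 genes of that level 338 (6.23%) had one. The share among the named genes, 7.52%, was near that. Some genes were named for a large SD, which 1 extreme pool can give, among them jun, hspa12a, ddit4 and hoxc6a. The count is therefore not independent of how the genes were chosen. Low pools were found for jun (0.817 of the range, pool 3), hspa12a (0.753, pool 2), fzd7a (0.692, pool 5), ube2q2 (0.677, pool 5), ddit4 (0.655, pool 3), cdh1 (0.631, pool 5), rrm1 (0.583, pool 4) and hoxc6a (0.58, pool 3). High pools were found for vox (0.645, pool 6) and cxcr4a (0.6, pool 2). Pools 3 and 5 each accounted for 3 of the 10 and pool 2 for 2. For ube2q2, a ubiquitin-conjugating enzyme, the gap was small in size, since its highest signal was only 1.1-fold above its lowest.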

How the results depend on the processing

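Of the values recomputed under other settings, 224 lay within 1.5 times of those given and 21 did not. The number of probe sets at the minimum in no pool was 982 with a minimum of 100 and 7940 with one of 400. The median SD was 0.587 with no filter on signal. Probe sets with an SD of at least 1 numbered 808 with a minimum of 100, 28 with one of 400, 5854 with no filter, 462 where a signal of 200 was asked in at least 3 of 7 pools and 21 with an offset of 100 added before the log. Of the 20 most variable genes, 4, 3, 0, 3 and 10 were kept under those settings in the same order, and 6 by the scaled median absolute deviation, which kept 464 of the 800 probe sets in the top 10%. The median correlation of probe sets of the same gene was 0.409 after median centring. Leaving out each pool in turn gave 6837 to 6917 probe sets in all pools and 4268 to 4740 in none, a median SD of 0.28 to 0.30, 104 to 138 probe sets with an SD of at least 1, and 13 (without pool 3) to 18 of the 20 most variable genes. It kept 28 to 30 of the 30 strongest genes and 613 to 709 of the top 10%, and gave 29.97 to 39.8% of the variance in the first component, 0.30 to 0.39 for the correlation of pools 2 and 6 and 0.22 to 0.31 for probe sets of the same gene. Among lists, epiblast and neural plate genes in the top 10% numbered 7 of 29 after median centring. Hox genes numbered 2 with a minimum of 400 and 11 of the 34 measured with no filter. As above, hox counts in the top 10% are not read. With no filter the median SD of yolk genes was 0.654. No paired analysis was possible because only 1 group was described.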
